A study of Mus musculus with 12 samples.

Results

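*Dlx1*, *Dlx2*, *Dlx5* and *Dlx6*, 4 homeobox genes, were examined together with 3 genes of GABA metabolism, *Gad1*, *Gad2* and *Abat*, in retinas that lost *Otx2*. The members were all probe sets that the platform annotation gives to exactly 1 of these 7 symbols. This gave 10 probe sets of 45101 on the array, or 7 genes of the 18193 with a probe set of 1 symbol. The question was whether the Dlx genes and the GABA enzymes rise together in the *Otx2* conditional knockout (CKO) retina. RNA of whole mouse retina was hybridized to 12 Affymetrix Mouse Genome 430 2.0 arrays, 3 for each genotype at postnatal day 12 (P12) and at P1. CKO mice had the genotype otx2 flox/flox; Crx-Cre+, in which Cre is expressed under the *Crx* promoter and acts in developing photoreceptors. Control mice had the genotype otx2 flox/flox; Crx-Cre- and thus carried the same floxed alleles without Cre. How many retinas or animals went into each array, and whether the 3 arrays of a group came from separate animals, is not given in the sources used here, so that the p values measure the spread between these arrays.

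Dlx proteins are homeodomain transcription factors. In the mouse forebrain *Dlx1*, *Dlx2*, *Dlx5* and *Dlx6* act in the precursors of GABAergic interneurons, and in the mouse retina *Dlx1* and *Dlx2* are known from the development of ganglion, amacrine and horizontal cells. Glutamate decarboxylases, GAD67 from *Gad1* and GAD65 from *Gad2*, make GABA from glutamate, and the mitochondrial GABA transaminase from *Abat* breaks it down. In the adult retina GABA is mainly a transmitter of amacrine cells. Dlx genes lie in neighbouring pairs. In the RefSeq annotation of GRCm38.p6, *Dlx1* (chr2:71528113-71533981) and *Dlx2* (chr2:71543408-71546754) are 9426 bases apart on chromosome 2, and *Dlx6* (chr6:6863334-6867970) and *Dlx5* (chr6:6877801-6882068) neighbour each other on chromosome 6. *Gad1* (chr2:70561303-70602014) and *Gad2* (chr2:22621015-22693877) also lie on chromosome 2, and *Abat* (chr16:8513429-8621568) lies on chromosome 16.

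Sequences before the listed starts of the genes were compared, since *Otx2*, its relative *Crx* and the Dlx proteins bind short homeodomain motifs. RefSeq windows of 250 bases before the start were at hand for 4 of the 7 genes, *Dlx1*, *Dlx2*, *Gad1* and *Gad2*. Only that of *Dlx2* lies outside the annotated gene, since the genes of the other 3 are annotated from an earlier start, so that these 3 windows lie within the gene. Both strands were searched for TAATC, the core bound by *Otx2* and *Crx*, and for TAATTA, the core bound by Dlx proteins, which reads the same on both strands. These 2 motifs share the letters TAAT, and their matches can overlap at the ends. TAATC was present in 19.8% and TAATTA in 4.84% of the 32536 windows of the table. The windows of *Dlx1*, *Dlx2* and *Gad2* held neither motif, and that of *Gad1* held TAATC 2 times, on opposite strands, and no TAATTA. The whole window of *Dlx2* is shown because it is the one outside the gene, and the surroundings of the 2 matches in *Gad1* are shown because they are the matches found. *Dlx2* is read on the minus strand (GRCm38.p6, chr2:71546755-71547004), and the *Gad1* stretches on the plus strand (chr2:70561917-70561941 and chr2:70561982-70562006, with the match starting 202 and 137 bases before the start). Capitals mark the match.
*Dlx2*: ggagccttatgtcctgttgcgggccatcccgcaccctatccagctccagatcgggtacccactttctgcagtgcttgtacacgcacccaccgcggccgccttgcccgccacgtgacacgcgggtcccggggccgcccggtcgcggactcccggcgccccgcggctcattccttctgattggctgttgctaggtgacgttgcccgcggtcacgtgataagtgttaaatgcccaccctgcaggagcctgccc
*Gad1*, first match: gtgcattctgGATTActcataggac
*Gad1*, second match: gctggatttaTAATCgccctacaaa
A match describes the letters only, and these arrays measured no binding.

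*Dlx1* and *Dlx2* rose in the P12 CKO retina, and so did *Abat*. *Gad1* did not pass the test, and *Gad2* passed it where the experiment number was taken into account or, as deposited, where P12 CKO replicate 2 was left out. These are bulk values, in which fewer cells of a type and less RNA per cell cannot be told apart. Signals are the deposited linear values of GeneChip Operating Software, and the log2 changes are limma estimates on log2(signal + 16), which understate changes of dim probe sets. Tests were limited to probe sets that averaged 50 or more in either group, and a probe set was called at a Benjamini-Hochberg adjusted p under 0.05 over all probe sets tested. At P12, 7 of the 10 member probe sets were tested, 3 were higher and 0 were lower. Over all 21390 probe sets tested, 14.1% were higher and 4.54% were lower, and after quantile normalization of the 12 arrays the same 3 members passed, where 7.93% of all were higher. By a signal log ratio of at least 1, a criterion with no test, 5 of the 7 were higher, where 17.5% of all were. These 5 add both *Gad2* probe sets. The median log2 change was 1.43 over the 7 tested members and 0.39 over all probe sets tested. The median of the members leaves out the 3 probe sets that were below the limit in both groups. *Dlx1*, *Dlx2* and *Gad2* (1421978_at) reached the limit only through the CKO arrays, in which they averaged higher. The limit thus favoured raised members, and neither this median nor the share of members called is support for a rise of the set. As deposited the P12 CKO arrays were brighter on average, mostly through replicate 1. The trimmed mean of the array was 172, 108 and 110 in P12 CKO replicates 1 to 3, against 96.4, 111 and 97.4 in P12 control. The median log2 change over all probe sets tested was 0.07 after the normalization. Both scales are therefore given below.

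*Dlx1* (1449470_at) gave the widest separation of the members. Its signal was 246, 248 and 326 in the P12 CKO arrays, against 0.9, 0.4 and 0.8 in the P12 control arrays. Every CKO array was far above every control array. CKO arrays all above the control arrays, by any margin, were found in 20.8% of all probe sets tested. The control signals of *Dlx1* were near 0, so that no fold is given. Its log2 change was 4.10 (SE 0.30, adjusted p = 2.04e-06, limma) as deposited and 3.34 (SE 0.36, adjusted p = 3.76e-05, limma) after quantile normalization. *Dlx2* (1448877_at) was 152, 105 and 103 in the P12 CKO arrays, against 11.5, 10.3 and 5.2 in the P12 control arrays. Its groups did not overlap either, and as the control signals were below the median of their arrays no fold is given. The log2 change of *Dlx2* was 2.43 (SE 0.27, adjusted p = 6.67e-05, limma) as deposited and 1.90 (SE 0.31, adjusted p = 0.000978, limma) after normalization. Both calls held under every scaling, offset, limit, block and left-out array tried. The study lists *Dlx1* and *Dlx2* among its raised genes from these same arrays. It also gives a 3.5-fold increase of Gad65, the product of *Gad2*, as an amacrine cell marker. This choice of members is thus not independent of their direction.

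The partner pair *Dlx5* and *Dlx6* stayed below the limit of 50 in all groups and was not tested. *Dlx5* (1449863_a_at) was 15.4, 6.9 and 15.7 in the P12 CKO arrays, against 28.8, 0.5 and 1.2 in the P12 control arrays. The highest value was thus in a control array. *Dlx6* (1452507_at) was 2, 3 and 3.4 in the P12 CKO arrays, against 0.5, 5.9 and 0.4 in the P12 control arrays, and its groups overlapped. At P1 neither exceeded 2.5 on any array. Other transcripts of the family were as dim. *Dlx3* averaged 22.2 ± 8.08 in P12 CKO and 19.4 ± 3.16 in P12 control retinas (SD, n = 3 each), and *Dlx4* averaged 16.5 ± 18.6 in P12 CKO and 23.2 ± 13.6 in P12 control retinas. *Dlx6os1*, a noncoding RNA of the *Dlx5* and *Dlx6* locus, averaged 7.1 ± 3.47 in P12 CKO and 3.83 ± 2.96 in P12 control retinas. Of the 6 genes listed as family members or neighbouring transcripts, 2 passed the limit, *Metap1d* and *Itga6*, which flank the *Dlx1* and *Dlx2* pair on chromosome 2, and 0 of these 2 were called. At an unadjusted p under 0.05, 7205 of the 21390 probe sets passed at P12. *Metap1d* averaged 121 ± 26.6 in CKO and 82.8 ± 17 in control retinas (log2 change 0.47, adjusted p = 0.176, limma), and *Itga6* averaged 106 ± 27.5 in CKO and 62.5 ± 10.9 in control retinas (0.63, adjusted p = 0.0744).

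**Figure D1:**
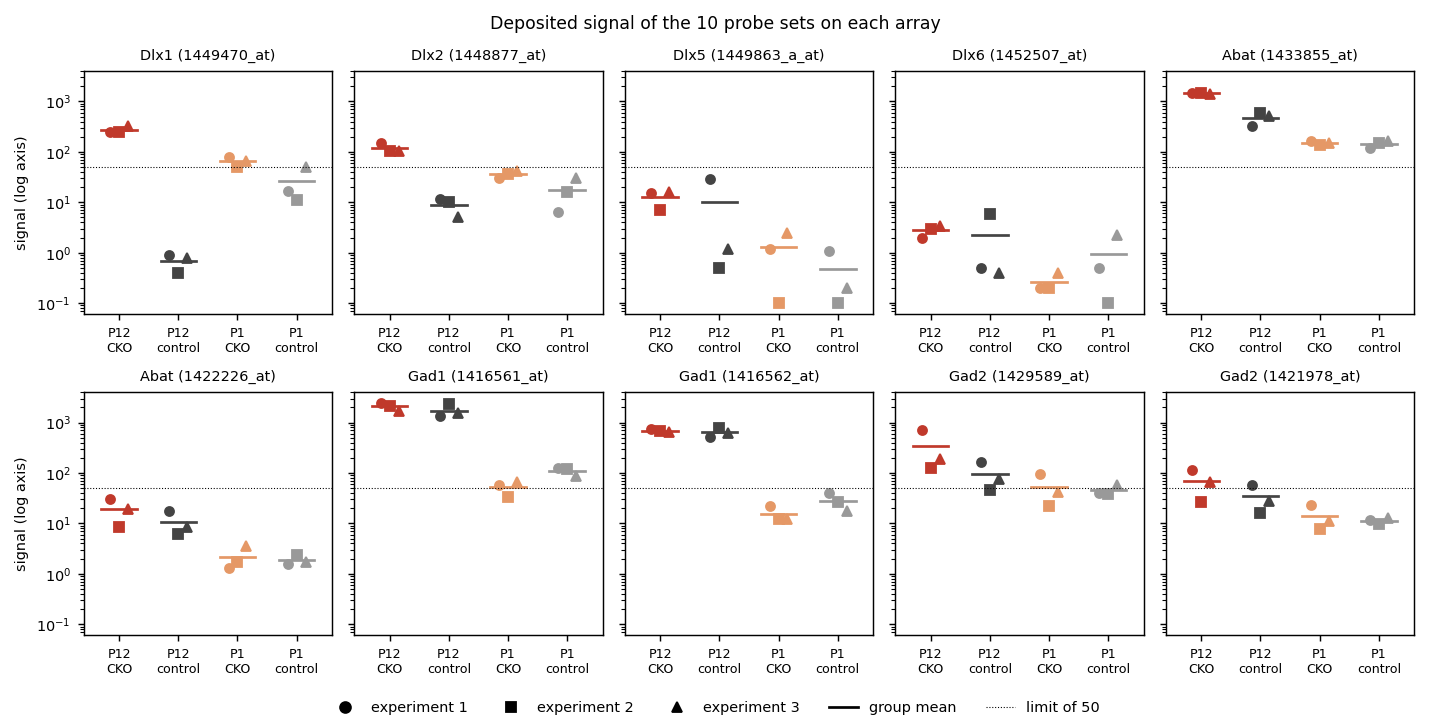
Deposited signal (log axis) of the 10 probe sets on each array, with 1 point per array, its shape giving the experiment number, a bar at the group mean and a dotted line at the limit of 50. *Dlx1* lies between 246 and 326 in the P12 CKO arrays and between 0.4 and 0.9 in the P12 control arrays, whereas the points of *Gad1* at P12 overlap.

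Among the GABA genes, *Abat* rose most clearly. Its brighter probe set (1433855_at) was 1448, 1493 and 1421 in the P12 CKO arrays, against 326, 579 and 512 in the P12 control arrays. The CKO signals lay close together and all above the control signals, 3.08-fold by the group means. The log2 change was 1.63 (SE 0.23, adjusted p = 0.000441, limma) as deposited and 1.34 (SE 0.19, adjusted p = 0.000449, limma) after quantile normalization, and it was called in all 25 alternatives tried on it. The dim second probe set of *Abat* (1422226_at) was 29.8, 8.5 and 18.9 in the P12 CKO arrays, against 17.5, 6.1 and 8.6 in the P12 control arrays. It was below the limit and was not tested.

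*Gad1* was bright in both genotypes at P12. Its first probe set (1416561_at) was 2469, 2120 and 1713 in the P12 CKO arrays, against 1324, 2291 and 1563 in the P12 control arrays. The groups overlapped. The log2 change was 0.30 (95% confidence interval −0.29 to 0.89, adjusted p = 0.444, limma) as deposited and 0.03 (−0.40 to 0.46, adjusted p = 0.94, limma) after quantile normalization. The second probe set (1416562_at) was 731, 666 and 647 in the P12 CKO arrays, against 527, 776 and 634 in the P12 control arrays. Its log2 change was 0.09 (adjusted p = 0.803, limma) as deposited and −0.22 (adjusted p = 0.604, limma) after normalization. The upper ends of the 4 intervals were at most 0.89, below the estimates for *Dlx1*, *Dlx2* and *Abat* on the same scale.

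*Gad2* was higher in the CKO array of each P12 experiment, but the experiments differed widely. Its brighter probe set (1429589_at) was 713, 124 and 190 in the P12 CKO arrays, against 169, 46.3 and 75.8 in the P12 control arrays. Experiment 1 was high and experiment 2 low in both genotypes, and the groups overlapped. Without a block the log2 change was 1.43 (SE 0.58, adjusted p = 0.103, limma) as deposited and 1.02 (SE 0.47, adjusted p = 0.179, limma) after quantile normalization. With the experiment number as a replicate block the adjusted p was 0.00692 (limma) as deposited, where 21.7% of all probe sets tested were higher. It was 0.0072 (limma) after quantile normalization with the block within each age, a fit that called 21.4% of all probe sets higher. With that block as deposited both *Gad2* probe sets passed, making 5 of the 7 members, where 36.3% of all were higher. In that fit the members had SEs of 0.22 to 0.27, and *Dlx1* had an adjusted p of 7.29e-71 (limma). The spread was thus nearly shared between probe sets, so that these p values say little about the spread of each one. Without a block, as deposited, the log2 change was 1.92 (adjusted p = 0.0338, limma) without P12 CKO replicate 2 and 0.73 (adjusted p = 0.356) without P12 CKO replicate 1. With the other arrays left out it was 1.08 to 1.87 and did not pass. After quantile normalization without a block it did not pass, whichever array was left out (0.53 to 1.43, adjusted p 0.0612 to 0.489, limma). The second probe set (1421978_at) was 115, 27 and 67.8 in the P12 CKO arrays, against 59.1, 16 and 27.8 in the P12 control arrays. Its log2 change was 0.72 (SE 0.39, adjusted p = 0.216, limma), or 1.15 (adjusted p = 0.0377) without P12 CKO replicate 2, and after quantile normalization it fell below the limit.

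Each CKO array was also taken over the control array of the same experiment. After quantile normalization the P12 ratios were 2.63, 2.61 and 2.59 for *Abat* in experiments 1 to 3. They were 2.45, 2.29 and 2.19 for *Gad2* (1429589_at) and 1.01, 1.03 and 1.03 for *Gad1* (1416561_at). The other probe sets of these genes were less even. They gave 1.24, 1.45 and 1.91 for the dim second probe set of *Abat* (1422226_at), 1.21, 1.65 and 2.04 for *Gad2* (1421978_at) and 0.718, 0.932 and 0.931 for *Gad1* (1416562_at). *Dlx2*, with its dim control signals, was higher in the CKO array of each experiment. As deposited, the ratios of experiment 1 were the highest for *Gad1* (1.86, 0.925 and 1.10), *Gad2* (4.21, 2.68 and 2.50) and *Abat* (4.43, 2.58 and 2.77), and the trimmed mean of the whole array had the ratios 1.78, 0.973 and 1.13. *Abat*, *Gad2* and *Dlx2* were above 1 in 3 of 3 experiments on both scales. The share of all probe sets above 1 in 3 of 3 experiments was not computed, so this count has no background beside it.

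**Figure D2:**
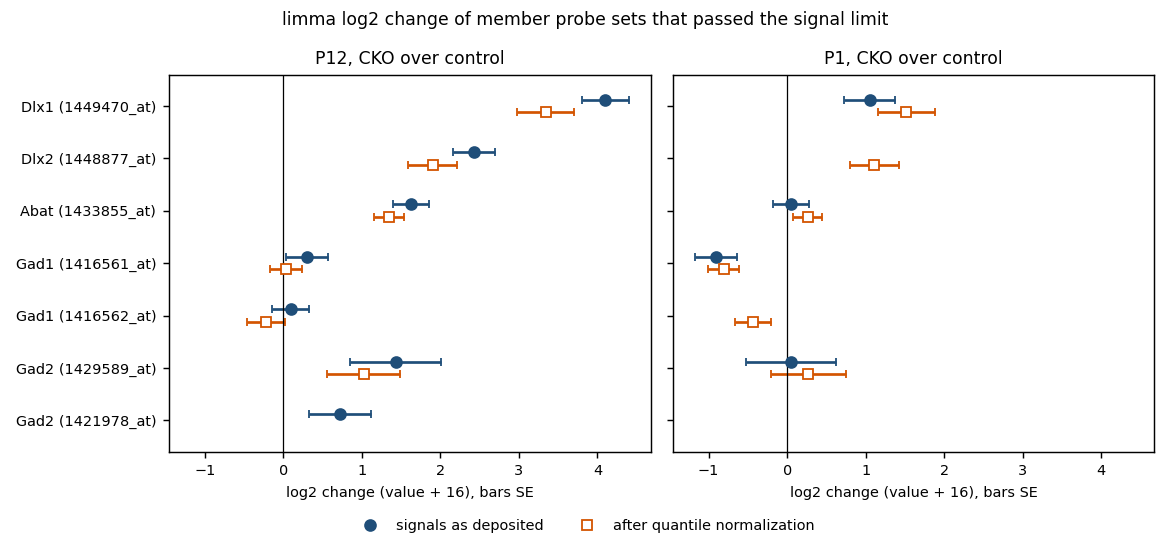
Log2 change from limma (horizontal axis, bars SE), CKO over control, at P12 and at P1 for the member probe sets that passed the limit, with filled circles for signals as deposited and open squares for values after quantile normalization. At P12 *Dlx1*, *Dlx2* and *Abat* lie at 4.10, 2.43 and 1.63 as deposited and both *Gad1* probe sets lie near 0.

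Members were also compared with each other on the same array. *Dlx1* gained 3.80 on *Gad1* in the P12 CKO arrays over the P12 control arrays, on the scale of log2(signal + 16). *Dlx2* gained 2.13 and *Abat* 1.32 on *Gad1*, and *Dlx1* gained 1.67 on *Dlx2*. In these 4 pairs all CKO arrays lay above all control arrays, with p = 0.1 in the two-sided exact permutation test, the smallest value that 3 against 3 arrays allow. *Gad2* gained 1.13 on *Gad1* with overlapping arrays (exact permutation p = 0.4), but its gain within the 3 experiments was 1.08, 1.28 and 1.03, above 0 in each. An exact sign-flip test over the 3 experiments gave p = 0.25, the smallest that 3 pairs allow. The gain of *Gad2* was 0.55 without P12 CKO replicate 1 or without P12 control replicate 2, and 1.73 without P12 control replicate 1. These 5 pairs were the only ones computed, and after Benjamini-Hochberg adjustment none could be below 0.1. The size of the pairs with Dlx genes depends on the scaling and the offset. *Dlx1* over *Gad1* was 3.31 after quantile normalization, 3 with median scaling, 7.03 with an offset of 1 and 2.37 with an offset of 50, whereas *Abat* over *Gad1* was 1.31 after quantile normalization and 1.29 with median scaling.

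**Figure D3:**
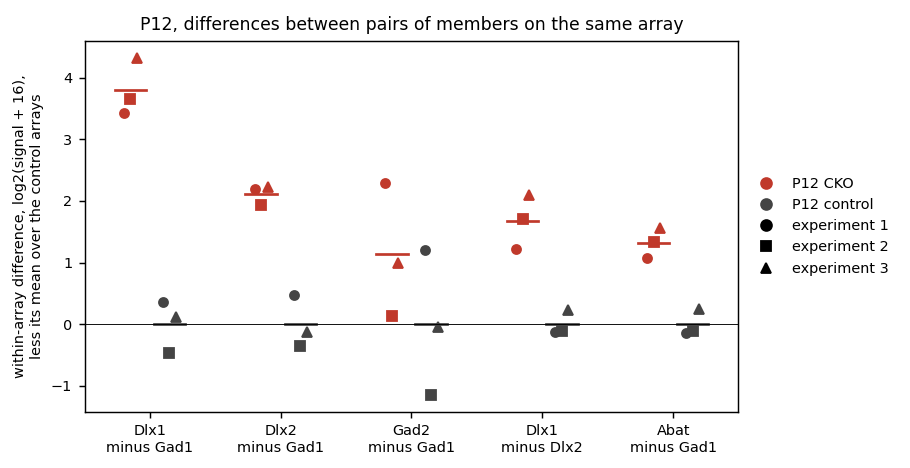
Difference of log2(signal + 16) between 2 members on the same P12 array, less the mean of that difference over the control arrays, with 1 point per array and bars at the group means. The CKO means lie 3.80, 2.13, 1.13, 1.67 and 1.32 above those of the control, and only the arrays of *Gad2* minus *Gad1* overlap.

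At P1 no member passed the test with all 12 arrays and no block. With the block within each age *Dlx1* passed as deposited and both *Dlx1* and *Dlx2* after normalization. *Gad1* lay on the other side of the control and did not pass. Of the 4 member probe sets tested, 0 were called by limma as deposited, where 0% of the 8384 probe sets tested were higher and 0.179% were lower (145 had an unadjusted p under 0.05). *Dlx1* was 80.6, 50.6 and 66.9 in the P1 CKO arrays, against 17.1, 11 and 51 in the P1 control arrays. Control replicate 3 reached the CKO range. The log2 change of *Dlx1* was 1.05 (SE 0.32, adjusted p = 0.915, limma) as deposited and 1.52 (SE 0.36, adjusted p = 0.258, limma) after quantile normalization. Without P1 control replicate 3 the normalized change was 2.01 (adjusted p = 0.01, limma). With the replicate block within each age the adjusted p was 0.00945 (limma) as deposited and 0.0242 (limma) after normalization, in fits that called 0.0358% and 0.063% of all probe sets higher. The first rests on the nearly shared spread described for *Gad2*. Arrays of the same number correlated at only 0.19, 0.14 and 0.27 between genotypes at P1. *Dlx2* was 30.8, 36.2 and 42.4 in the P1 CKO arrays, against 6.4, 16.3 and 30.3 in the P1 control arrays. The lowest CKO array was only just above the highest control array, and the probe set was below the limit as deposited. After quantile normalization it was tested, all CKO arrays were above all control arrays, as in 5.88% of all probe sets tested, and its log2 change was 1.11 (SE 0.31, adjusted p = 0.604, or 0.0193 with the block within each age, limma). In each of the 3 experiments the CKO array was above the control array for both genes, and the share of all probe sets for which this held was not computed.

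*Gad1* (1416561_at) was 57, 33.2 and 65.5 in the P1 CKO arrays, against 123, 122 and 85.5 in the P1 control arrays. All CKO arrays lay below all control arrays, as in 22% of the probe sets tested at P1 as deposited. The log2 change was −0.91 (SE 0.27, adjusted p = 0.915, limma) as deposited and −0.81 (SE 0.20, adjusted p = 0.335, limma) after normalization, when the groups were again apart as in 3.86% of the probe sets tested. *Abat* (1433855_at) was 162, 137 and 149 in the P1 CKO arrays, against 117, 151 and 165 in the P1 control arrays, with a log2 change of 0.05 (95% confidence interval −0.45 to 0.56, limma). *Gad2* (1429589_at) was 96.7, 21.9 and 41.9 in the P1 CKO arrays, against 39.4, 39.1 and 57.6 in the P1 control arrays, with a log2 change of 0.05 (−1.19 to 1.28, limma). The groups of both genes overlapped. By a signal log ratio of at least 1, 1 member was higher (*Dlx1*) and 1 was lower (*Gad1*), where 0.0358% of all were higher and 1.09% were lower.

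The difference between the changes at the 2 ages, P12 minus P1, was tested directly. It was called for 3 of the 7 member probe sets tested, all higher, where 3.08% of the 21530 probe sets tested were higher. It was 3.05 for *Dlx1* (SE 0.43, adjusted p = 0.00131, limma), 1.73 for *Dlx2* (SE 0.38, adjusted p = 0.0229) and 1.57 for *Abat* (SE 0.32, adjusted p = 0.017). After quantile normalization *Abat* remained past the threshold with 1.08 (adjusted p = 0.046, limma), and *Dlx1* with 1.82 (adjusted p = 0.0667) and *Dlx2* with 0.79 (adjusted p = 0.418) did not, where 1.28% of all probe sets tested were higher. As deposited, the block within each age gave the members a nearly shared SE of 0.31 to 0.38. In that fit 5 were called, where 28.9% of all were higher. After quantile normalization with the block 3 were called, where 9.92% were. These 3 were *Dlx1* (adjusted p = 0.00603, limma), *Abat* (0.00136) and *Gad1* (1416561_at, 0.84, adjusted p = 0.0459), and *Dlx2* had an adjusted p of 0.052. Without the block, 3 member probe sets were called with quantile normalization within each age, 0 with median scaling and 1 with scaling to the spiked controls. Whether *Dlx1* and *Dlx2* passed thus depended on the scaling without the block, and with the block within each age *Dlx1* passed both as deposited and after quantile normalization. As deposited, *Dlx2* lost its call without P1 control replicate 2 or 3, any P1 CKO replicate or P12 control replicate 3 (adjusted p 0.0557 to 0.0735), and *Abat* without replicate 2 or 3 of either P1 group (0.0563 to 0.067). *Gad1* (1416561_at) had a difference of 1.22 (SE 0.38, adjusted p = 0.0878, or 0.0238 without P12 control replicate 2, limma), and *Gad2* (1429589_at) one of 1.39 (SE 0.82, adjusted p = 0.299).

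Across ages, on the quantile-normalized scale, *Dlx1* was high in the CKO retina at both ages and fell with age in the control retina. It averaged 157 ± 56.7 at P12 and 189 ± 20.7 at P1 in CKO retinas (SD, n = 3 each). The log2 change was −0.30 (95% confidence interval −1.07 to 0.48, adjusted p = 0.585, limma). In control retinas it averaged 0.422 ± 0.148 at P12 and 63.9 ± 49.1 at P1, with a log2 change of −2.11 (SE 0.36, adjusted p = 0.000547, limma). *Dlx2* averaged 65.8 ± 8.21 at P12 and 106 ± 26.8 at P1 in CKO retinas (log2 change −0.56, adjusted p = 0.202, limma). In control retinas it averaged 5.9 ± 2.19 at P12 and 44 ± 27.4 at P1, below the limit at both ages. All P12 control arrays were below all P1 control arrays for both genes, as in 26.2% of the probe sets tested between these groups. As deposited the changes with age in the CKO retina had the other sign, 1.82 for *Dlx1* (adjusted p = 8.8e-05, limma) and 1.36 for *Dlx2* (adjusted p = 0.000392, limma).

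*Gad1* rose with age in both genotypes. After normalization its first probe set averaged 1215 ± 26.4 at P12 and 149 ± 38.8 at P1 in CKO retinas (log2 change 2.93, SE 0.20, adjusted p = 8.03e-07, limma). In control retinas it averaged 1188 ± 26.3 at P12 and 271 ± 59.5 at P1 (2.09, SE 0.20, adjusted p = 5.92e-06). *Abat* averaged 846 ± 157 at P12 and 421 ± 6.85 at P1 in CKO retinas (0.96, SE 0.19, adjusted p = 0.00302, or 0.155 with median scaling, limma). In control retinas it averaged 324 ± 62 at P12 and 350 ± 50.6 at P1 (−0.11, 95% confidence interval −0.54 to 0.31, adjusted p = 0.67), but as deposited this change was 1.58 (adjusted p = 4.4e-05). *Gad2* (1429589_at) did not pass in either genotype after normalization, with 0.14 (adjusted p = 0.862) in CKO retinas and −0.62 (adjusted p = 0.325) in control retinas. As deposited it passed in CKO retinas with 2.14 (adjusted p = 0.00335, limma) and not in control retinas with 0.75 (adjusted p = 0.235). In all, 3 of 6 member probe sets tested rose with age in CKO retinas, where 14.2% of all probe sets tested did. In control retinas 2 of 5 rose and 1 fell, where 19.5% of all rose and 19.6% fell.

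**Figure D4:**
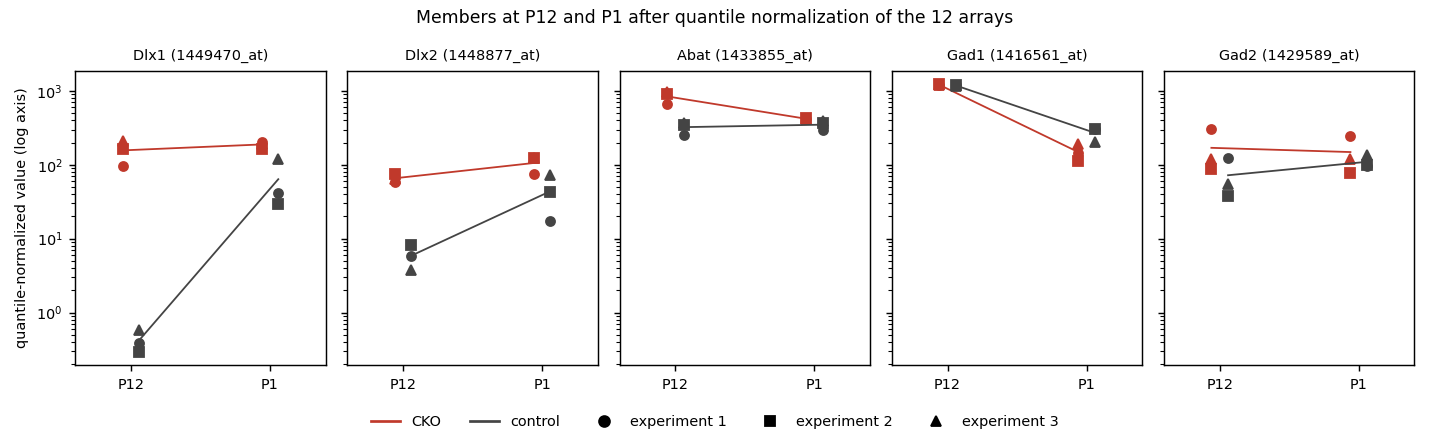
Quantile-normalized value (log axis) of 5 members at P12 and P1, with CKO in red and control in grey, 1 point per array and lines between the group means. *Dlx1* averages 157 at P12 and 189 at P1 in CKO retinas, and 0.422 and 63.9 in control retinas, whereas the P12 points of *Gad1* coincide.

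Other genes of the GABA pathway were also examined. The list held 17 genes of GABA precursor supply, packaging, uptake and breakdown, 13 of which had a named probe set, and 10 were tested at P12. Of these 2 were higher, 1 was lower and 7 were not called, where 14.1% of all probe sets tested were higher and 4.54% were lower. After quantile normalization 1 was higher and 1 was lower. Their median log2 change was 0.31, beside 0.39 over all probe sets tested, and 0 after quantile normalization, beside 0.07. *Slc32a1*, the vesicular GABA and glycine transporter, averaged 959 ± 103 in P12 CKO and 415 ± 199 in P12 control retinas (SD, n = 3 each; log2 change 1.29, adjusted p = 0.0142, limma). *Aldh5a1*, the succinate semialdehyde dehydrogenase that acts after *Abat* in GABA breakdown, averaged 506 ± 105 in P12 CKO and 260 ± 62.3 in P12 control retinas (0.92, adjusted p = 0.0225, and 0.0842 after normalization). *Slc38a3*, a glutamine transporter, averaged 487 ± 51.6 in P12 CKO and 863 ± 234 in P12 control retinas (−0.78, adjusted p = 0.0248). *Glul*, the glutamine synthetase of Muller glia, averaged 4480 ± 851 in CKO and 3600 ± 1290 in control retinas and did not pass (0.35, adjusted p = 0.319). At P1, 6 genes of the list were tested and 0 were called.

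Of 18 genes tied to Dlx genes as regulators or targets in earlier work, 13 had a named probe set and 8 were tested at P12. Of these 2 were higher, 3 were lower and 3 were not called, where 14.1% of all probe sets tested were higher and 4.54% were lower. The median log2 change was 0.18, beside 0.39 over all. After quantile normalization 1 was higher and 3 were lower, with a median of −0.14 beside 0.07. *Nrp2*, a semaphorin receptor whose promoter *Dlx1* and *Dlx2* are known to repress in mouse forebrain interneurons, averaged 469 ± 161 in P12 CKO and 84.6 ± 16.9 in P12 control retinas (log2 change 2.23, adjusted p = 0.000111, limma). *Meis1* averaged 270 ± 25.3 in CKO and 167 ± 26.1 in control retinas (0.65, adjusted p = 0.0491, and 0.319 after normalization). The 3 lower genes were *Otx2* itself, which was deleted, *Crx*, which the study describes as directly regulated by Otx2, and *Isl1*. The fall of *Otx2* was thus set by the design, and the study reports that of *Crx* and *Isl1* from these same arrays. The count of lower genes is therefore no support for a change of genes tied to Dlx genes. Why *Crx* and *Isl1* fell was not tested. *Otx2* averaged 173 ± 68.8 in P12 CKO and 969 ± 144 in P12 control retinas (−2.44, adjusted p = 6.96e-05, limma), and every CKO array was below every control array at both ages. Whether its probe set lies in the floxed segment was not checked. The forebrain factors *Gsx1*, *Gsx2* and *Sp8* were under the limit in both genotypes.

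Marker genes of several cell types moved with the genotype at P12, where 14.1% of all probe sets tested were higher and 4.54% were lower as deposited, and 7.93% and 8.46% after quantile normalization. Their part in the results was not tested. Photoreceptor markers fell in 8 of 8 genes tested, with a summed signal of 967 to 2100 in CKO and 30000 to 42900 in control arrays, and bipolar markers fell in 5 of 6. Amacrine markers were higher in 8 of 14 genes tested, with a median log2 change of 1.23 and a summed signal of 12600 to 16800 in CKO and 5890 to 8400 in control arrays. After quantile normalization 6 of 13 were higher, and the sums were 7750 to 8690 in CKO and 4860 to 5250 in control arrays. At P1 their sums were 1900 to 2600 in CKO and 1940 to 2600 in control arrays. Among them *Pax6*, also a factor of other inner retinal cells, averaged 3080 ± 481 in CKO and 1040 ± 150 in control retinas at P12 (1.55, adjusted p = 0.000224, limma). *Tfap2c* had a log2 change of 2.21 (adjusted p = 0.00179) and *Ppp1r17* one of 1.87 (adjusted p = 0.000393). Of the other inner retinal lists, 3 of 10 ganglion cell markers were higher, and 2 of 10 after normalization. Of 5 horizontal cell markers *Onecut2* was higher, and *Lhx1* and *Calb1* were lower. Progenitor markers were higher in 4 of 5, Muller glia markers in 4 of 8 and microglia markers in 8 of 8 as deposited, and in 2 of 5, 3 of 8 and 8 of 8 after normalization. Of 7 markers of the retinal pigment epithelium 3 were higher, and 2 of 5 after normalization, with a summed signal of 2430 to 4540 in CKO and 841 to 2730 in control arrays as deposited. *Dct*, an enzyme of melanin synthesis, averaged 949 ± 337 in CKO and 231 ± 59.7 in control retinas (1.94, adjusted p = 0.00034, limma), and *Tyrp1*, a second one, averaged 167 ± 40.2 in CKO and 45.9 ± 1.18 in control retinas (1.54, adjusted p = 0.000234). The forebrain interneuron list, where Dlx genes are best known, had 2 of 8 genes past the limit, *Sst* and *Npy*, and 0 of these were called. *Lhx6*, *Lhx8* and *Nkx2-1* averaged at most 10.7 in either genotype at P12.

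Over the 12 arrays, the genes whose quantile-normalized profile was most like that of a member differed between members. The likeness is Pearson's r of log2(value + 16) over 16520 probe sets, and it rests mostly on the 4 group means that the arrays share. The closest genes to *Dlx1* were *Sox11* (r = 0.973), *Egfr* (0.964), *Ebf3* (0.958), *Arpc5* (0.955) and *Stmn4* (0.952). The place of *Sox11*, a transcription factor of immature neurons, rests on 1431225_at alone, which the platform annotation gives to it. The study lists this probe set under another symbol and *Sox11* by 1453125_at. After normalization 1431225_at averaged 1040 in P12 CKO, 30.4 in P12 control, 1910 in P1 CKO and 718 in P1 control retinas. The annotation gives *Sox11* 6 probe sets, and the r of the other 5 was 0.785 to 0.907, below that of *Stmn4*. At P1 the probe sets did not run in 1 direction, and 1453125_at averaged 691 in CKO and 797 in control retinas. The closest to *Abat* were *Fgf13* (0.982), *Ppp1r14c* (0.974), *Igfbpl1* (0.959), *Phlpp1* (0.956) and *Plxdc2* (0.955). The closest to *Gad1* were *Cplx3* (0.989), *Scg2* (0.985), *Nrip3* (0.978), *Prepl* (0.975) and *Vcl* (0.975). *Cplx3*, a complexin of retinal synapses, averaged 956 in P12 CKO, 1160 in P12 control, 82.2 in P1 CKO and 164 in P1 control retinas on this scale. The 3 lists of 5 genes shared no gene.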

How the data were processed

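RNA of mouse retinas of 4 groups (P12 and P1, CKO and control, 3 arrays each) was labeled by the authors with the One-Cycle cDNA and IVT kits and hybridized to 12 arrays. The deposited values are linear signal intensity values, which the authors determined with GeneChip Operating Software 1.4, with no scaling target or detection call given in the sources used here. Array medians of the signal were 24.3 to 56 at P12 and 5.1 to 7.9 at P1, and the lowest correlation between arrays of a group was 0.884. The number of arrays limits the precision. Of 45101 probe sets 34945 had 1 symbol, 932 several and 9160 none in the platform annotation, and 64 controls were left out. Groups follow the titles and genotype fields, since the free-text description of 8 samples names the other genotype.

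All values were computed in R 4.3.3 with limma 3.58.1 (lmFit, eBayes with trend, log2(signal + 16), 4 groups in 1 model, limit 50, Benjamini-Hochberg over all probe sets tested, threshold 0.05). The code was tested on simulated data. Figures were drawn in Python 3.11.15 with matplotlib 3.10.9. Ages were compared after quantile normalization of the 12 arrays. The probe set with the highest mean stands for a gene. Named were all member probe sets, *Otx2*, up to 4 genes of each list with the largest call at P12 and genes that carry a comparison with a member, and the 5 genes most like *Dlx1*, *Gad1* and *Abat*. The members and lists were chosen with earlier results of these data known.

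The titles number the experiments 1 to 3. Deviations from the group means of arrays of the same number correlated at 0.83, 0.88 and 0.57 between genotypes at P12 and at 0.19, 0.14 and 0.27 at P1, each array correlating best with its own number, so that the numbers were taken to pair the arrays within an age. Between ages, arrays of the same number correlated at 0.63, 0.62 and 0 for P12 CKO with P1 CKO. The values were 0.63, 0.67 and −0.08 for P12 control with P1 CKO, and −0.07 to −0.01 for either P12 group with P1 control. Alternatives were other scalings, offsets of 1 and 50, limits of 0 and 100, the replicate block, eBayes without the trend, each age alone, each array left out, and a signal log ratio of at least 1 in size. The block within each age, quantile normalization together with the block or a left-out array, and other scalings of the within-array differences were chosen after seeing the data. As deposited, the block within each age gave the members nearly the same SE, so that its calls rest little on the spread of each probe set. Sequences are from RefSeq (GRCm38.p6).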

Additional observations from a re-analysis of the deposited data

Results flagged for a closer look

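The change in the CKO retina over the control retina differed between P12 and P1 for 3 members, by limma's test of the difference itself on signals as deposited. The log2 change at P12 minus that at P1 was 3.05 for *Dlx1* (SE 0.43, adjusted p = 0.00131), 1.73 for *Dlx2* (SE 0.38, adjusted p = 0.0229) and 1.57 for *Abat* (SE 0.32, adjusted p = 0.017). After quantile normalization these were 1.82 (adjusted p = 0.0667), 0.79 (adjusted p = 0.418) and 1.08 (adjusted p = 0.046), and with the block within each age added the adjusted p was 0.00603 for *Dlx1*, 0.052 for *Dlx2* and 0.00136 for *Abat*.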

How the results depend on the processing

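*Dlx1*, *Dlx2* and *Abat* at P12 kept their direction and their call in all 25 alternatives and in the 12 that joined quantile normalization to a left-out array. At P12, 3 member probe sets were called, 5 by a signal log ratio of at least 1 with no test, 4 with the replicate block, 5 with the replicate block within each age and 3 to 5 with an array left out (5 without P12 CKO replicate 2). At P1 none was called, 2 by the signal log ratio (1 higher, 1 lower), 0 with the replicate block, 1 with the block within each age, 2 with that block after quantile normalization and 0 to 1 after normalization with an array left out. *Gad2* at P12, *Dlx1* at P1 and, for the difference of the changes, *Gad1* and *Gad2* crossed the threshold with the block within each age, and the block changed no other call of signals as deposited. For the difference of the changes, 3 were called, 1 after quantile normalization of the 12 arrays and 3 after quantile normalization within each age. The count was 0 with median scaling, 1 with spike scaling and 5 with the block within each age. With an array left out it was 1 to 4 (1 without P1 control replicate 2 or 3, or P1 CKO replicate 2 or 3), and 0 to 1 after normalization with an array left out. For P12 over P1 in CKO retinas, 3 were called and 7 as deposited. The cause of these moves was not tested.

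Uncalled *Gad1* changes at P12 turned sign: the second probe set was −0.22 after either quantile normalization, alone or with the block, −0.20 with median and −0.23 with spike scaling, −0.04 to 0.23 with an array left out, and −0.30 to −0.08 (among them −0.27, −0.24 and −0.19) after normalization with an array left out, and the first was −0.02 with spike scaling. At P1, with an array left out, *Gad2* was −0.02 to 0.41, or −0.15 to 0.61 after normalization, and *Abat* −0.07 to 0.15. With age in control retinas, as deposited, *Gad2* was 0.75 and *Abat* 1.58, and *Abat* was 0.60 with spike scaling and 0.04 without P12 control replicate 1. With age in CKO retinas, as deposited, *Dlx1* was 1.82 and *Dlx2* 1.36, *Dlx1* was 0.33 with spike scaling, and *Gad2* was −0.34 to 0.55 with an array left out. Array brightness, 3 arrays a group and signals under 50 limit what these arrays can show of *Dlx5*, *Dlx6* and *Dlx2* at P1.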
